A study of Mus musculus with 4 samples.

Results

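The T-box genes described here are 8 members of a family of transcription factors, Tbx1, Tbx2, Tbx3, Tbx4, Tbx5, Tbx15, Tbx18 and Tbx20, taken by name from a table of 45706 mouse genes. They were measured by RNA sequencing of the outflow tract, the vessel-like exit of the embryonic heart that gives rise to the aortic and pulmonary roots, at embryonic day 12.5 in C57BL/6 mice. The WT group was labelled wild type, with no statement of whether those embryos carried a Cre transgene, and in the Sox17eKO group Sox17 was deleted in aortic root endothelium with Cre driven by an Nfatc1 enhancer. Each genotype had 2 libraries, each made from 10 pooled hearts, and the stated purpose was to find genes controlled by the endothelial factor SOX17. The deletion was thus limited to some endothelial cells, whereas the RNA came from every cell type of the dissected tissue.

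T-box proteins bind DNA through a domain first described in brachyury, the product of the gene T, and act as activators or repressors at short elements that contain the half-site AGGTGT. In the heart they divide the work by place. TBX5 and TBX20 act in chamber muscle, TBX2 and TBX3 repress chamber genes in the outflow tract, the atrioventricular canal and the conduction system, TBX1 acts in pharyngeal cells that feed the outflow tract, and TBX18 marks the epicardium, the outer layer of the heart. TBX4 and TBX15 are better known from limb, lung and body wall mesenchyme. Human disease follows loss of several of them, including TBX1 in DiGeorge syndrome, TBX5 in Holt-Oram syndrome and TBX3 in ulnar-mammary syndrome.

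The libraries held 8113463 to 21883956 reads on genes, and WT replicate 2 was the shallowest. Reads matched to no gene feature in counting made up 20.4% to 22.2% of uniquely placed reads in WT and 29.5% to 34.1% in Sox17eKO. Sox17, the deleted gene, was at 6.05 and 6.83 CPM (reads scaled to library size with TMM factors) in WT replicates 1 and 2 and at 2.76 and 2.82 CPM in Sox17eKO replicates 1 and 2. It fell by 1.19 on the log2 scale (edgeR adjusted p = 0.00574, or 0.0519 without WT replicate 2). Markers of outflow tract muscle, cushion mesenchyme, smooth muscle, endothelium and epicardium were read in every library, except Plac9a of the outflow muscle list, which had 0 reads in all 4. The ventricular myosin light chain gene Myl2 was also abundant, at 3242 to 3996 CPM over the 4 libraries. The part of chamber muscle in the dissected tissue was not tested. In bulk tissue, fewer cells of a type and less RNA per cell cannot be told apart.

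Tbx20 was by far the most abundant of the 8 genes per length, followed by Tbx18, Tbx5, Tbx2 and Tbx3, while Tbx4, Tbx15 and Tbx1 were at the limit of detection. On the scale of CPM per kilobase of exonic length, Tbx20 was at 75.1 and 65.8 in WT replicates 1 and 2 and at 86.1 and 83.5 in Sox17eKO replicates 1 and 2. Tbx18 lay between 17.3 and 19.9 in the 4 libraries, Tbx5 between 6.67 and 7.82, Tbx2 between 4.18 and 5.34 and Tbx3 between 2.47 and 3.02. None of these 5 ranges overlapped the next, so the order of levels was the same in every library. Tbx4, at 0.107 to 0.205, and Tbx15, at 0.0675 to 0.166, did overlap and could not be ordered. The mean level of Tbx3 was 19.1 times that of Tbx4, and the mean level of Tbx20 was 4.31 times that of Tbx18. Tbx20 alone held 64.7% to 72.3% of the summed level per kilobase of the 8 genes, and Tbx18 held 14.8% to 19.6%. In reads, which also scale with length, Tbx20 supplied 82.4% to 86.9% of the 7570 to 25394 reads on these genes in a library.

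**Figure D1:**
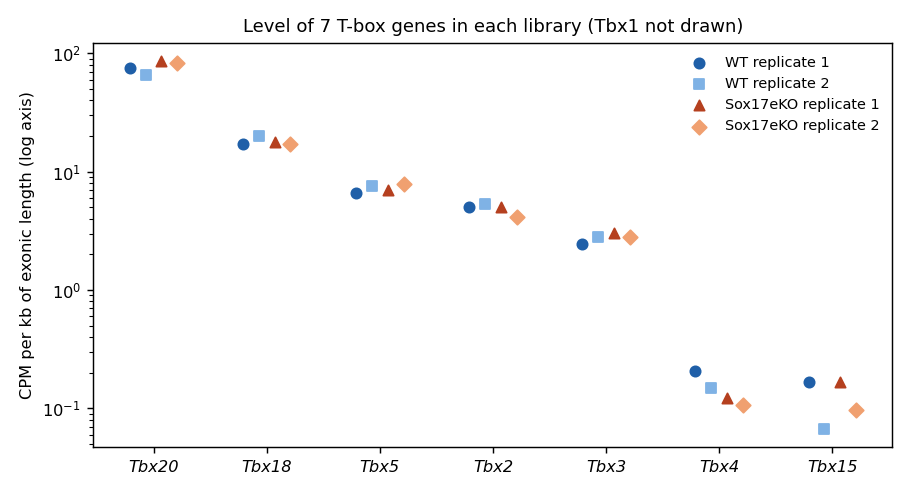
Level of 7 T-box genes in CPM per kilobase of exonic length (log axis), 1 point for each of the 4 libraries. Tbx20 lies between 65.8 and 86.1, and Tbx4 and Tbx15 lie below 0.21, with WT and Sox17eKO points mixed for most genes. Tbx1 had 0 reads in 3 libraries and is not drawn.

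Of the 8 genes, 4 lie as linked pairs in the genome. On mm10, Tbx2 (chromosome 11, 85832551 to 85841948, plus strand) and Tbx4 (85886422 to 85916097, plus strand) are neighbours, as are Tbx3 (chromosome 5, 119670669 to 119684724, plus strand) and Tbx5 (119832668 to 119885219, plus strand). The level per kilobase did not follow the neighbourhood. Tbx2 was well expressed beside a Tbx4 at the limit of detection, whereas Tbx5 and Tbx3 were both expressed. Tbx20 (24718138 to 24774303) and Tbx18 (87702800 to 87731260) are on the minus strand of chromosome 9, Tbx1 (18580979 to 18590671) on the minus strand of chromosome 16 and Tbx15 (99240381 to 99354259) on the plus strand of chromosome 3. Exons of Tbx3 share 115 bases with the antisense gene Tbx3os1, and exons of Tbx18 share 970 bases with the opposite-strand transcript D030062O11Rik. No source used here states whether strand was used in counting, so reads in these stretches may not have been told apart.

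None of the 8 genes was called changed between the genotypes, where a call is a Benjamini-Hochberg adjusted p under 0.05 in edgeR's quasi-likelihood test over all 16570 genes tested. Of all genes tested, 5.35% were called, 4.13% higher and 1.22% lower in Sox17eKO. Only 5 of the 8, Tbx2, Tbx3, Tbx5, Tbx18 and Tbx20, had enough reads to be tested. Of these 5, 1 had an unadjusted p under 0.05, against 20.9% of all genes tested, and 1 had genotypes that did not overlap, against 52.8% of all genes tested. Fitted levels in Sox17eKO were higher for 3 and lower for 2, with a median log2 fold change of 0.06 against -0.01 for all genes tested.

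Tbx20, which chamber muscle and the cushions of the outflow tract need for growth and septation, came closest to a call. Its level was 901 and 789 CPM in WT replicates 1 and 2 and 1033 and 1002 CPM in Sox17eKO replicates 1 and 2, from 6239 to 22037 reads. Both Sox17eKO libraries lay above both WT libraries, and the gap between the WT pools was wider than that between the Sox17eKO pools. The log2 fold change was 0.27 (standard error 0.085) and its 95% interval was 0.09 to 0.45, which corresponds to 1.06-fold to 1.36-fold (edgeR adjusted p = 0.0717, unadjusted p = 0.00538). The result sits at the threshold and depends on the setting. Tbx20 passed with DESeq2 (adjusted p = 0.0414), with limma-voom (0.0498), among protein-coding genes only (0.0377), without a filter on low counts (0.0241) and without WT replicate 1 (0.0213). It did not pass in the other alternatives without a replicate block, and without WT replicate 2 the log2 fold change was 0.18 (edgeR adjusted p = 0.451). The length trend is a smooth fit on exonic length and genomic span in each library, made among protein-coding genes only. With it removed the log2 fold change of Tbx20 was 0.10 (edgeR adjusted p = 0.51). Tbx20 has the longest exonic length of the 8 genes (11997 bases). The part in its value of the difference in reads matched to no gene feature was not tested.

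Tbx18, an epicardial and sinus horn factor that is also used by mural cell precursors, was at 81.4 and 93.9 CPM in WT replicates 1 and 2 and at 83.4 and 81.4 CPM in Sox17eKO replicates 1 and 2. WT replicate 2 was the highest library and the other 3 lay close together, so the genotypes overlapped. The log2 fold change was -0.08 with a 95% interval of -0.26 to 0.09, so a fall below 0.836 of the WT level lay outside the interval (edgeR adjusted p = 0.616). Of 12 epicardial markers listed, 11 were matched by symbol and tested, 2 fell and none rose, and all 11 had a lower fitted level in Sox17eKO (median log2 fold change -0.24). Of all 16570 genes tested, 8578 had a lower fitted level and 1.22% were called lower. Upk3b, a mesothelial surface protein, fell from 123 and 127 CPM in WT to 103 and 92.6 CPM in Sox17eKO (log2 fold change -0.35). Lrrn4, another mesothelial marker, fell from 33.0 and 39.1 CPM to 27.2 and 22.7 CPM (log2 fold change -0.53). Aldh1a2, which makes retinoic acid in the epicardium, was fitted at -0.33 on the log2 scale (edgeR adjusted p = 0.0559). It passed with limma-voom (0.0487), without a filter (0.0344) and without Sox17eKO replicate 1 (0.044, log2 fold change -0.43). Wt1, a transcription factor of the epicardium, was fitted at -0.06 (edgeR adjusted p = 0.821). The summed level of the 11 markers was 458 and 469 CPM in WT and 421 and 367 CPM in Sox17eKO, and none of them was at 0. Leaving out WT replicate 2 ended the Upk3b and Lrrn4 calls (edgeR adjusted p = 0.101 and 0.152), as did leaving out Sox17eKO replicate 2 (0.116 and 0.0954). Whether Tbx18 differed from these markers in its response was not tested.

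Tbx5, the activator of chamber genes that is strongest in atrial and left ventricular muscle, was at 31.2 and 35.7 CPM in WT and at 32.8 and 36.6 CPM in Sox17eKO, in replicate order. The libraries of the 2 genotypes were interleaved. The log2 fold change was 0.06 with a 95% interval of -0.16 to 0.29 (edgeR adjusted p = 0.794). Its sign was not stable, being -0.04 without WT replicate 1 and -0.02 without Sox17eKO replicate 2.

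Tbx2 and Tbx3 are close relatives that repress chamber genes and are induced by BMP signals. Tbx2 was at 18.2 and 19.4 CPM in WT and at 18.3 and 15.1 CPM in Sox17eKO, with Sox17eKO replicate 2 the lowest library and the other 3 together. Its log2 fold change was -0.17 with a 95% interval of -0.45 to 0.10 (edgeR adjusted p = 0.489). Tbx3 was at 16.4 and 18.7 CPM in WT and at 20.0 and 18.5 CPM in Sox17eKO, and the genotypes overlapped. Its log2 fold change was 0.14 with a 95% interval of -0.12 to 0.40 (edgeR adjusted p = 0.572). These intervals are wider than that of Tbx18, and the genes had 148 to 406 reads in a library against 742 to 1790 for Tbx18. Neither gene passed in any alternative that gave an adjusted p, and DESeq2 gave none for them. With 1 library left out the log2 fold change ran from -0.31 (without Sox17eKO replicate 1) to -0.03 (without Sox17eKO replicate 2) for Tbx2, and from 0.03 (without WT replicate 1) to 0.23 (without WT replicate 2) for Tbx3.

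**Figure D2:**
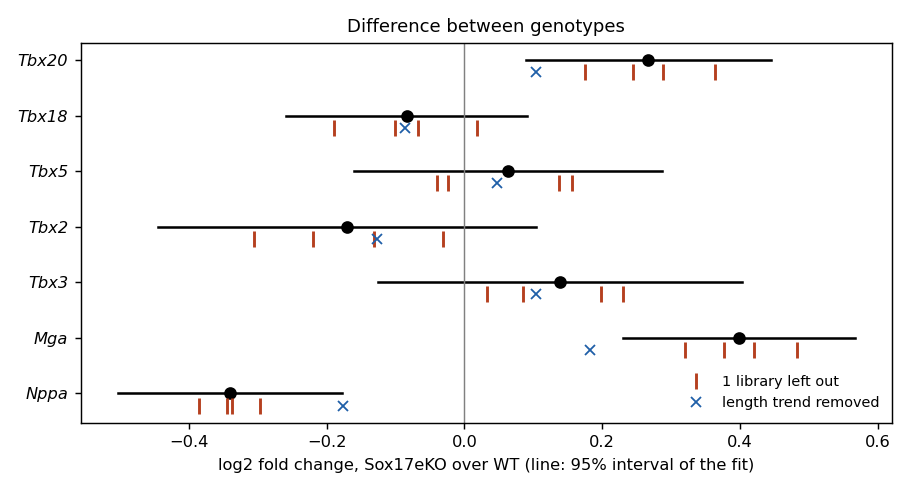
Log2 fold change of Sox17eKO over WT for 5 T-box genes of the heart, the related gene Mga and the T-box target Nppa. Points and lines are the fit and its 95% interval, ticks are fits with 1 library left out and crosses the fit with the length trend removed. The interval of Tbx20 runs from 0.09 to 0.45, those of Tbx18, Tbx5, Tbx2 and Tbx3 include 0, and Mga and Nppa lie at 0.40 and -0.34.

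The RNAs of the T-box loci gave few reads. Tbx3os1, the antisense partner of Tbx3, had 9 and 6 reads in WT and 19 and 26 reads in Sox17eKO, or 0.698 and 0.759 against 1.31 and 1.18 CPM. Both Sox17eKO libraries were above both WT libraries, and the fitted difference was 0.77 on the log2 scale, with -0.18 to 1.72 as its 95% interval (edgeR adjusted p = 0.348). 2610027K06Rik, which starts 328 bp from Tbx2 on the opposite strand, had 10 to 28 reads in a library (log2 fold change 0.17, edgeR adjusted p = 0.863). Tbx3os2, Bcas3os1 and Bcas3os2 had at most 3 reads in any library, and Gm11541, which is on chromosome 11 but away from Tbx2 and Tbx4, had 0 in all 4.

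Tbx1, the pharyngeal factor, was read in a single library. It had 0 reads in both WT libraries, 0 in Sox17eKO replicate 1 and 8 in Sox17eKO replicate 2, which is 0.364 CPM (95% exact Poisson interval 0.157 to 0.717, counting error only). The same interval for a count of 0 reached up to 0.286 and 0.467 CPM in WT replicates 1 and 2 and 0.254 CPM in Sox17eKO replicate 1. These intervals overlap that of Sox17eKO replicate 2, and no difference between genotypes was established at this depth. Pooled by genotype, the ratio of Sox17eKO to WT had a lower 95% counting bound of 0.973, with all 8 reads from 1 library. Of 12 pharyngeal mesoderm and pouch markers, 4 had enough reads to be tested and none was called, and Foxn1, the thymus factor, had 0 reads in all libraries. Their summed level was 5.91 CPM in Sox17eKO replicate 2, within the 4.68 to 6.28 CPM of the other libraries. Epcam, an epithelial adhesion protein, was at 1.46 CPM in Sox17eKO replicate 2 and at 0.759 to 1.01 CPM in the others, and Eya1, a pharyngeal cofactor, at 1.27 to 1.94 CPM in all 4. The part of other tissue in the Tbx1 reads was not tested.

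Tbx4, a factor of hindlimb and lung mesenchyme, had 9 and 4 reads in WT and 6 and 8 in Sox17eKO. Pooled by genotype and scaled to depth, the ratio of Sox17eKO to WT was 0.614, with a 95% counting interval of 0.268 to 1.42 (exact conditional binomial, counting error only). Tbx15, a factor of limb and trunk mesenchyme, had 8 and 2 reads in WT and 9 and 8 in Sox17eKO, a ratio of 0.969 with an interval of 0.419 to 2.37. Differences of these sizes were not detectable at this depth. Wnt2, a ligand of lung mesenchyme that is also made in the heart, was at 6.98 to 7.97 CPM in the 4 libraries (edgeR adjusted p = 0.995) and made up most of the summed level of the lung and foregut markers, 10.00 to 10.6 CPM. The lung factor gene Nkx2-1 and the surfactant gene Sftpc had 0 reads in every library. Among lung and foregut markers 3 of 9 were tested and none was called. Sox2 and Cdh1, of foregut epithelium, were fitted at -0.37 and 0.07 on the log2 scale with edgeR adjusted p = 0.713 and 0.964, and Cdh1 varied from 0.380 to 2.02 CPM between the WT pools. Of 10 body wall and limb mesenchyme markers, 2 were tested and none was called. These were Shox2, which the sinus node also uses, at 11.7 to 12.9 CPM, and Alx4 at 0.591 to 1.71 CPM (edgeR adjusted p = 0.997 and 0.481).

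Ratios between the tested T-box genes inside a library need no scaling between libraries, but the length trend does not cancel in them. With that trend removed the log2 fold change was 0.10 for Tbx20, -0.09 for Tbx18 and -0.13 for Tbx2. There are 10 pairs of the 5 genes, and for 5 of them the genotypes did not overlap. Over all 8778 pairs of tested genes from the lists used here the share was 43.4%, so this count was near the background. Tbx20 reads per Tbx18 read were 11.1 and 8.41 in WT and 12.4 and 12.3 in Sox17eKO. Tbx20 reads per Tbx2 read were 49.5 and 40.8 in WT and 56.3 and 66.2 in Sox17eKO. Tbx3 reads per Tbx2 read were 0.898 and 0.967 in WT and 1.09 and 1.22 in Sox17eKO. Reads also scale with length, and per kilobase of exonic length Tbx2 was above Tbx3 in every library (4.18 to 5.34 against 2.47 to 3.02). Tbx18 reads per Tbx3 read were 4.98 and 5.01 in WT and 4.17 and 4.41 in Sox17eKO. All pairs given so far are among those without overlap. Of the pairs with overlap, Tbx20 reads per Tbx3 read were 55.1 and 42.2 in WT and 51.7 and 54.3 in Sox17eKO. Tbx5 reads per Tbx3 read were 1.91 and 1.91 in WT and 1.64 and 1.98 in Sox17eKO. These ratios are descriptions, with no test.

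**Figure D3:**
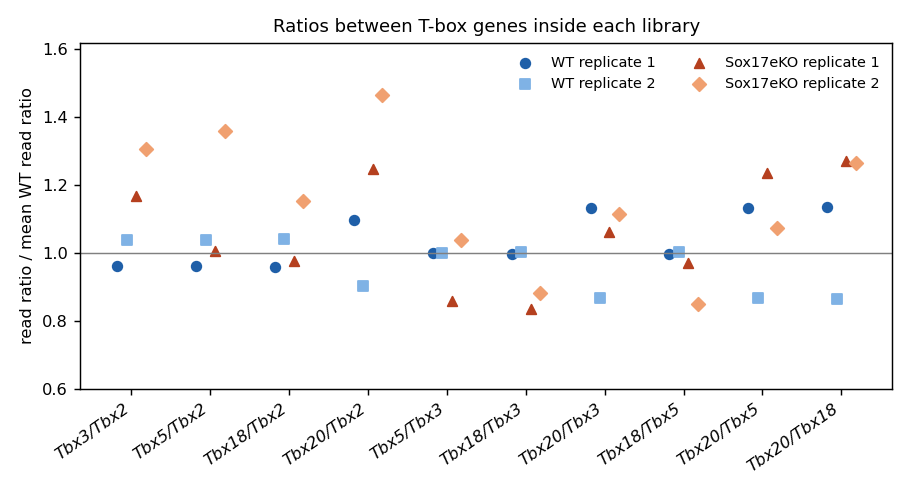
Read ratio of each of the 10 pairs of tested T-box genes, divided by the mean WT ratio of that pair, with 1 point per library. For Tbx20/Tbx18 both Sox17eKO points lie above both WT points (12.4 and 12.3 against 11.1 and 8.41), and for Tbx20/Tbx3 the genotypes overlap.

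Of 9 other T-box genes, Mga was the 1 with enough reads to be tested, and it rose. Mga encodes a large protein with both a T-box and a helix-loop-helix domain that pairs with MAX and takes part in Polycomb repression. It was at 226 and 202 CPM in WT replicates 1 and 2 and at 287 and 278 CPM in Sox17eKO replicates 1 and 2, with a clear gap between the genotypes. It was 0.40 higher on the log2 scale (standard error 0.08, edgeR adjusted p = 0.0073). Leaving out WT replicate 2 ended the call (log2 fold change 0.32, edgeR adjusted p = 0.106), as did removal of the length trend (0.18, edgeR adjusted p = 0.22). Mga has 15340 exonic bases. The other 8 had at most 6 reads in a library. T itself, the mesoderm gene that names the family, had 2 and 3 reads in WT and 0 in both Sox17eKO libraries. The pooled ratio of Sox17eKO to WT for T had a 95% counting interval of 0 to 0.622, which leaves out the spread between pools. Tbr1, a cortical factor, had 1 and 1 reads in WT and 2 and 6 in Sox17eKO, and Tbx6, of presomitic mesoderm, had 1 to 6 reads in a library. Eomes, Tbx19, Tbx21 and Tbx22 had between 0 and 3 reads in each library and Tbx10 had 0 in all.

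Promoters are shown for the T-box gene with the highest level (Tbx20), the T-box gene with a half-site in 1 of its 2 windows (Tbx1), and Nppa, the target gene with the extended site. Only the Tbx1 window with the match is printed. The sequences are the 250 bases before the RefSeq start, from GRCm38.p6, the assembly that mm10 names. Capitals mark the half-site AGGTGT or its extended form AGGTGTGA, on either strand. Of 32851 RefSeq promoter windows of 300 bases, 13.7% held AGGTGT and 1.27% held AGGTGTGA, which contains it. The SOX core AACAAT, searched on both strands, was in 10.7%.
Nppa: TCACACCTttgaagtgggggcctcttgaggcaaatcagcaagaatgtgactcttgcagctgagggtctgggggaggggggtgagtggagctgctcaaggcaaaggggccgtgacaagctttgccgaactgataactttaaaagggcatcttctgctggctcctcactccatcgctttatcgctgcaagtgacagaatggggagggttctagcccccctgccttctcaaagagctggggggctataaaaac
Tbx1: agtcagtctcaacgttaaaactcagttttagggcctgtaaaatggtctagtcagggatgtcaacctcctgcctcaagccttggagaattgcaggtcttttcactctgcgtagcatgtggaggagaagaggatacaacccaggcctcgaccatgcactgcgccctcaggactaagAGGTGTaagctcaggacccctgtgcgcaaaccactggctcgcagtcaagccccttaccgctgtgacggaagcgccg
Tbx20: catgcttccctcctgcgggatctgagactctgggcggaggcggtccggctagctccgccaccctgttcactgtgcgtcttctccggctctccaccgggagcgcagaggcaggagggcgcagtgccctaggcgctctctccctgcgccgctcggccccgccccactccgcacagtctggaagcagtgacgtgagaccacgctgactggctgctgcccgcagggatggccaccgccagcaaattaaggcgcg
The Nppa window is chr4:148000472-148000721 on the plus strand, the Tbx1 window chr16:18590672-18590921 and the Tbx20 window chr9:24774304-24774553, both on the minus strand. In Nppa the extended site begins 250 bases before the start, written in reverse as TCACACCT, and in Tbx1 the half-site begins 76 bases before the start. Windows of Tbx1 (2 windows), Tbx4, Tbx18 and Tbx20 (1 each) were searched, and of these 4 genes 1 held AGGTGT and none held AACAAT. Of the chamber genes described next, 16 had a window, 2 held AGGTGT and 1, Nppa, held AGGTGTGA. These are matches of letters, not binding data.

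Among 20 chamber genes that T-box factors activate or repress, Ryr2 rose and Nppa fell, and 18 did not pass. Over all genes tested, 4.13% were called higher and 1.22% lower. The median log2 fold change of the list was -0.02, against -0.01 for all genes tested. Nppa, which encodes atrial natriuretic peptide and is the classic gene that TBX5 activates and TBX2 and TBX3 repress, was at 636 and 675 CPM in WT and at 516 and 519 CPM in Sox17eKO. The 2 pools of each genotype lay close together, with a log2 fold change of -0.34 and a standard error of 0.078 (edgeR adjusted p = 0.0158). Leaving out WT replicate 2, Sox17eKO replicate 1 or Sox17eKO replicate 2 ended the call (edgeR adjusted p = 0.133, 0.0981 and 0.0573), as did removal of the length trend (log2 fold change -0.18, edgeR adjusted p = 0.2). Gja5, the connexin 40 gene that is regulated by the same factors, was at 72.8 and 74.1 CPM in WT and at 64.6 and 81.2 CPM in Sox17eKO, so that the Sox17eKO pools lay on either side of WT. Its log2 fold change was -0.0049 with a 95% interval of -0.21 to 0.20 (edgeR adjusted p = 0.985). Ryr2, the calcium release channel whose gene TBX5 activates, was at 406 and 364 CPM in WT and at 627 and 664 CPM in Sox17eKO. Its log2 fold change was 0.74 and passed in every alternative, although removal of the length trend took it to 0.31. Hcn4, a pacemaker channel gene found with Tbx3 in the conduction system, was at 9.52 to 11.6 CPM in the 4 libraries (edgeR adjusted p = 0.858). Nppa has 865 exonic bases and Ryr2 has 28790.

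None of 14 proteins that partner T-box factors, such as NKX2-5, GATA4 and ISL1, was encoded by a called gene. The median log2 fold change was -0.11, with 4 fitted higher and 10 lower. Nkx2-5 was at 46.3 and 59.1 CPM in WT and at 40.6 and 48.2 CPM in Sox17eKO, with overlap. Mef2c, a muscle factor gene, was at 143 and 124 CPM in WT and at 157 and 161 CPM in Sox17eKO (log2 fold change 0.25, edgeR adjusted p = 0.0755). It passed without WT replicate 1 (0.0278) and without a filter (0.0387), and with the length trend removed its fitted difference was -0.0012. Sall4, a zinc finger partner of TBX5, was at 1.78 and 1.64 CPM in WT and at 2.69 and 3.18 CPM in Sox17eKO (log2 fold change 0.78, edgeR adjusted p = 0.155).

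Of 23 genes of the TBX1 pathway, 14 were tested and none was called, with a median log2 fold change of -0.0092. Foxc1, a forkhead factor upstream of Tbx1, was at 29.3 and 32.1 CPM in WT and at 21.7 and 25.0 CPM in Sox17eKO, below WT in both libraries. Its log2 fold change of -0.39 was just short of the threshold (edgeR adjusted p = 0.0546). It passed among protein-coding genes only (0.0469), without a filter (0.0323), without WT replicate 1 (0.047) and without Sox17eKO replicate 2 (0.0296). Aldh1a2, also on this list, was at 44.4 and 44.5 CPM in WT and at 37.9 and 32.9 CPM in Sox17eKO.

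Of 17 genes of BMP and HEY signals that set Tbx2, Tbx3 and Tbx20 expression, Bmp10 rose and none fell, with a median log2 fold change of 0.07. Over all genes tested, 4.13% were called higher and 1.22% lower. Bmp10, a ligand of trabecular muscle, was at 20.0 and 14.2 CPM in WT and at 24.1 and 26.2 CPM in Sox17eKO (log2 fold change 0.53, edgeR adjusted p = 0.0329). The gap between the WT pools was larger than the gap from WT replicate 1 to Sox17eKO replicate 1. The call ended without WT replicate 2 (0.295), without Sox17eKO replicate 2 (0.0751) and without the robust option (0.0666). Bmpr2, a BMP receptor gene, was at 173 and 157 CPM in WT and at 196 and 194 CPM in Sox17eKO (edgeR adjusted p = 0.0807). Removal of the length trend turned its log2 fold change of 0.24 to -0.02.

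**Figure D4:**
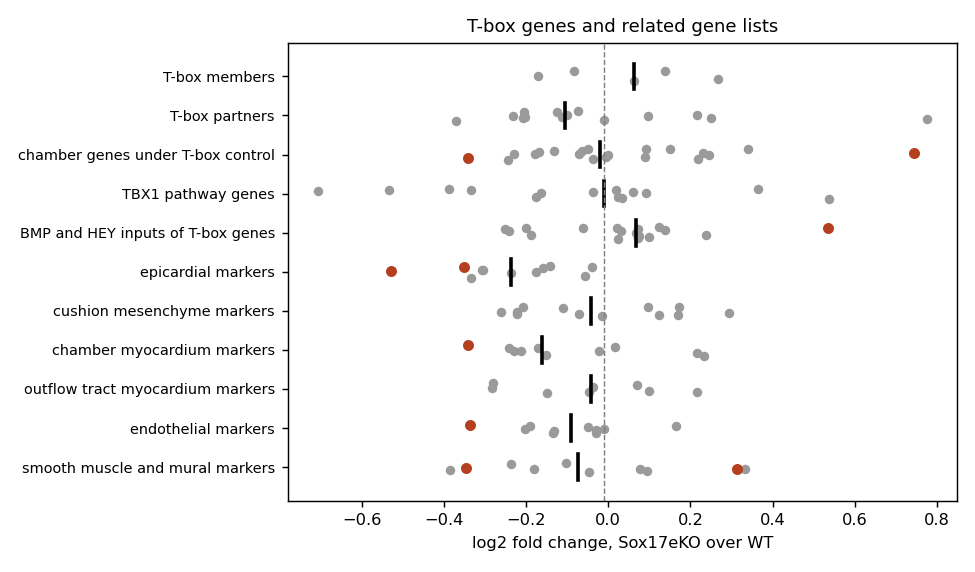
Log2 fold change of each tested gene in the 8 T-box genes and in 10 related lists with at least 5 tested genes. Red points are called genes, grey points are not called, black bars are list medians and the dashed line is the median of all genes tested (-0.01). The 5 tested T-box genes lie between -0.17 and 0.27, and the epicardial markers all lie below 0.

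Of 12 cushion mesenchyme markers none was called. Lum, a matrix proteoglycan gene, was at 208 and 199 CPM in WT and at 185 and 155 CPM in Sox17eKO (edgeR adjusted p = 0.0838), and Has2, which makes the hyaluronan of the cushions, was at 54.3 and 49.6 CPM against 70.6 and 57.6 CPM (edgeR adjusted p = 0.0871). Both passed without a filter (edgeR adjusted p = 0.0347 and 0.023), Lum also without Sox17eKO replicate 1 (0.0194) and Has2 without Sox17eKO replicate 2 (0.00557). Of 10 chamber muscle markers 7 had a lower fitted level in Sox17eKO (median log2 fold change -0.16), and Nppa was the 1 called. Myl4, the atrial light chain gene, was at 2111 and 2290 CPM against 1883 and 1838 CPM (edgeR adjusted p = 0.104). Myl4 passed with DESeq2 (0.0388), after removal of the length trend (0.0474) and without WT replicate 1 (0.0466). The summed level of the chamber muscle list ran from 20861 to 21927 CPM in WT and from 20480 to 22435 CPM in Sox17eKO. Of 9 outflow tract muscle markers 8 were tested and none was called, with Wnt11, a polarity ligand of outflow muscle, fitted at -0.28 on the log2 scale (edgeR adjusted p = 0.216) and Crabp1, a retinoic acid binding protein gene, also at -0.28 (edgeR adjusted p = 0.268). With 1 library left out they ran from -0.46 to -0.11 and from -0.40 to -0.15, the ends being the fits without Sox17eKO replicate 1 and without Sox17eKO replicate 2, and removal of the length trend took Crabp1 to -0.12. Of 10 endothelial markers 9 had a lower fitted level in Sox17eKO (median log2 fold change -0.09), against 8578 of all 16570 genes tested. Tie1, an endothelial receptor, fell (log2 fold change -0.34, edgeR adjusted p = 0.0204), and Eng, a co-receptor, was fitted at -0.20 (edgeR adjusted p = 0.159). Of 10 smooth muscle and mural markers, Cnn1, a contractile protein gene, fell (-0.35) and Myocd, a coactivator gene of the smooth muscle program, rose (0.31). Neither the Cnn1 nor the Myocd call held without the robust option (edgeR adjusted p = 0.0507 and 0.0634) or with the length trend removed (0.0693 and 0.207). With DESeq2 Myocd was not called (adjusted p = 0.104). Leaving out WT replicate 2 ended the Tie1, Cnn1 and Myocd calls (edgeR adjusted p = 0.225, 0.291 and 0.068), and so did leaving out at least 1 other library in each case.

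For each tested T-box gene, the list genes with the nearest profile over the 4 libraries were found by Euclidean distance between log2 CPM values centred on each gene's mean. They were Bnc1 and Tcf21 for Tbx2, Kcnj2 and Wnt2 for Tbx3, Dll4 and Chd4 for Tbx5, Wt1 for Tbx18, and Bmpr2 and Mef2c for Tbx20. The distances ran from 0.0501 for Tbx2 and Bnc1 to 0.141 for Tbx3 and Wnt2. With 4 libraries such likeness is common, since 30 to 723 of all genes tested were nearer than the list gene named.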

How the data were processed

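The data were RNA counts per gene from 4 libraries, 2 WT and 2 Sox17eKO, grouped and numbered by the sample titles. The deposited table holds whole-number counts for each Ensembl gene with no normalization by the authors. TopHat2, HTSeq and mm10 were used, per the submitters' processing notes, with versions, annotation release and the use of strand in counting not given in the sources used here. The libraries were strand-specific, per the labels' protocols. Of 45706 genes, 45143 matched a symbol in GENCODE M21 (GRCm38), which also gave coordinates and exonic lengths. The 5 HTSeq summary rows were left out. The no-feature and ambiguous rows (20.4% to 34.1% and 3.38% to 6.22% of uniquely placed reads) entered only the share of reads matched to no gene feature. Replicate counts were further apart than sampling noise, with a chi-square of 4.77 (WT) and 6.01 (Sox17eKO) for each degree of freedom, so both of a group entered as separate samples.

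Genotypes were compared with edgeR's quasi-likelihood test (edgeR 4.0.16, R 4.3.3, robust, prior count 0.125) with TMM factors on the 16570 genes that passed filterByExpr, with genotype as the only term, 2 residual degrees of freedom and Benjamini-Hochberg adjustment over all genes. The biological coefficient of variation was 0.0791. Standard errors were taken as the absolute log2 fold change over the root of F. P-values rest on 2 pools per genotype. On simulated counts for this comparison (16092 genes tested), 4.17% of 48 genes changed 1.25-fold, 48.9% of 47 changed 1.5-fold and 79.2% of 48 changed 2-fold were called. The simulation gave every gene the same dispersion, drew changed genes at all levels and changed fewer genes than were called in the data. These rates are thus not the power for a given T-box gene. Alternatives used DESeq2 1.42.0, limma-voom (limma 3.58.1), other scalings and filters, no robust option, a replicate block, each library left out, and protein-coding genes only. DESeq2 gave no adjusted p for some named genes, Tbx2, Tbx3, Tbx5 and Sox17 among them. A further fit on 13361 protein-coding genes removed the length trend (mgcv 1.9.3), a smooth fit on exonic length and genomic span. This also removes any genotype difference that runs with length or span.

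The T-box genes and the 16 lists were chosen with earlier results of these data known. Named were all T-box genes and locus RNAs, every called list gene, the 2 list genes with the smallest p and a mean of at least 1 CPM, and the 2 nearest profiles per tested T-box gene (pseudocount 0.5). A few further list genes (Wt1, Gja5, Hcn4, Nkx2-5, Myl2 and markers read at or near 0) were named for their known roles after their values were seen. For Tbx18 only 1 of the 2 nearest profiles is named, since some list genes are not reported here. A planned comparison of protein sequences was not run, as protein sequences were not used here.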

Additional observations from a re-analysis of the deposited data

How the results depend on the processing

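The number of genes called, 886 (684 higher and 202 lower), was 390 (294 and 96) with DESeq2, 160 (79 and 81) with the length trend removed and 1364 without a filter (387 lower). The lower calls numbered 111 with library size scaling and 105 without the robust option. With 1 library left out the total ran from 192 to 1219, the higher calls from 172 to 756 and the lower calls from 20 to 463. A fit with replicate number as a block called 1684 genes (1107 higher and 577 lower). The correlation of same-numbered deviations over all genes tested was -0.0201. Such a value cannot exclude a batch shared by same-numbered libraries in some genes, so pairing was not settled. The titles give only a shared number, and the block is given here alone. Under the block 1 T-box gene, Tbx20, was called (log2 fold change 0.27, edgeR adjusted p = 0.0163). The count of called T-box genes, otherwise 0, was also 1 with DESeq2, limma-voom, no filter and protein-coding genes only, and 0 to 1 with 1 library left out, each time Tbx20. Called list genes numbered 4 higher and 5 lower of 128 tested, against 4.13% and 1.22% of all genes tested. They were 2 higher with the length trend removed, 2 higher without the robust option, 8 and 8 without a filter and 8 and 10 under the block, and with 1 library left out they ran from 1 to 7 and from 0 to 12. The share of the summed level per kilobase held by Tbx20 was 69.8% with exonic union length, 74.0% with the longest transcript and 69.0% to 71.5% with 1 library left out. The log2 fold change changed sign for uncalled genes only. With 1 library left out it ran from -0.040 to 0.157 for Tbx5, -0.190 to 0.018 for Tbx18, -0.25 to 0.57 for 2610027K06Rik, -0.080 to 0.062 for Shox2, -0.906 to 0.17 for Sox2, -0.68 to 1.87 for Cdh1, -0.385 to 0.23 for Eya1 and -0.41 to 0.524 for Epcam. With the length trend removed, Bmpr2 was at -0.025, Mef2c at -0.0012 and Shox2 at 0.053. Shox2, at -0.0015 as reported, was at 0.0018 under a minimum mean CPM, 0.027 with library size scaling, 0.0024 with limma-voom, 0.0023 with no filter and 0.0074 among protein-coding genes. The cause of these shifts was not tested. Depth limits Tbx1, Tbx4 and Tbx15, which had too few reads to pass the filter. Without a filter 2 T-box genes had an unadjusted p under 0.05 in edgeR, against 1 in the main fit, and only Tbx20 was called.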

Other observations

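Genes that lie within 20000 bp of a T-box gene were read alongside it. Bcas3, 6493 bp from Tbx2 on the same strand, was at 21.1 and 15.3 CPM in WT replicates 1 and 2 and at 22.3 and 23.2 CPM in Sox17eKO replicates 1 and 2 (log2 fold change 0.30, edgeR adjusted p = 0.213), while Tbx2 was at 18.2 and 19.4 against 18.3 and 15.1 CPM. Wars2, the mitochondrial tryptophan tRNA synthetase gene 1195 bp from Tbx15, was at 15.9 to 20.1 CPM in the 4 libraries, with both Sox17eKO libraries below both WT libraries (log2 fold change -0.20, edgeR adjusted p = 0.373), beside a Tbx15 of 2 to 9 reads. Gnb1l, 14300 bp from Tbx1, had 24 to 62 reads in a library, whereas Tbx1 was read in 1 library. Gm43050, a noncoding gene 748 bp from Tbx5 on the opposite strand, was at 5.51 and 4.05 CPM in WT and at 3.31 and 3.96 CPM in Sox17eKO (log2 fold change -0.41, edgeR adjusted p = 0.353). D030062O11Rik, which overlaps Tbx18 on the opposite strand, had 5 and 3 reads in WT and 14 and 8 in Sox17eKO, too few to be tested. None of the tested neighbours was called.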
